A study of Mus musculus with 8 samples.

Results

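The 39 genes described here encode the machinery that copies DNA in S phase and the machinery that separates chromosomes in mitosis. They were taken as a list of symbols drawn up with earlier results of these data known, by a rule that sets no threshold on a measured value, and each symbol matched 1 row of the deposited table of 52636 mouse genes. By their known roles, 21 were placed in an S phase class and 18 in a mitosis class. All 39 passed the filter on low counts that left 15698 genes for testing. RNA was sequenced from cultured endothelium, the lining of blood vessels, that had been isolated from mouse liver. The 4 groups held 2 libraries each: dKO cells without cytokines, WT cells without cytokines, dKO cells given IL1B and TNFA, and WT cells given IL1B and TNFA. The labels do not expand dKO. The design text names deletion of Erg, Fli1 or both, the genes of a pair of ETS family transcription factors, with 4-OHT (an active form of tamoxifen) applied for 48 hours and the cells kept for 7 days in all. IL1B and TNFA, inflammatory cytokines that act on endothelium, were present for the last 16 hours. The labels list 4-OHT for every sample, WT included, and place it in mice, whereas the design text places it in the culture medium. The sources used here do not name the deleted alleles, the Cre line or the age and number of the mice. Live cells that carried CD31 and VE-cadherin and lacked CD45 were sorted before RNA was prepared.

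Before S phase begins, the loading factors Cdc6 and Cdt1 place the ring of Mcm proteins, the replicative helicase, on DNA at origins. E2F transcription factors, released from the retinoblastoma protein by cyclin E with its kinase Cdk2, switch on many genes of this machinery. Mitotic genes are switched on later, through promoter elements named CHR that are bound by MuvB complexes together with B-Myb and Foxm1. Cyclin B with Cdk1 then drives entry into mitosis, kinesin motors shape the spindle, and Bub, Cenp and Aurora proteins tie chromosomes to it. Endothelium in adult liver is mostly at rest and divides after injury or in culture.

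Library totals ran from 23009062 to 26944030 counts, and the members had 14 to 1674 counts in a library. Erg stood at 40.1 and 91.3 CPM in untreated dKO libraries, against 196 and 186 CPM in untreated WT libraries, and Fli1 at 21.9 and 62.5 CPM, against 161 and 177 CPM. Neither difference passed (adjusted p = 0.0864 and 0.0678). CPM is the count scaled to library size. Both genes were thus lower in dKO replicate 1 than in dKO replicate 2, and replicate 2 also lay closer to WT on the first principal component. The labels do not state whether a group's 2 libraries stem from separate cultures or mice, so a p-value here reflects only how far these libraries scatter, which may be technical. In bulk RNA, fewer cycling cells and less RNA per cycling cell cannot be told apart. The summed level of 10 endothelial markers, all at 1 CPM or more in every group, was 1441 to 3088 CPM in untreated dKO libraries, against 8726 to 8884 CPM in untreated WT libraries. With cytokines the same sum was 1293 to 2271 CPM in dKO, against 5108 to 5130 CPM in WT. For 12 stellate cell, pericyte and fibroblast markers the sums were 13400 to 17822 CPM in untreated dKO and 15242 to 19188 CPM in dKO with cytokines, against 9220 to 9349 CPM in untreated WT and 9977 to 10857 CPM in WT with cytokines. Of these 12, 9 were at 1 CPM or more in each group. Of the 11 tested, 6 were higher in untreated dKO than in untreated WT (edgeR adjusted p under 0.05), against 13.4% of all genes. The number lower was 0, against 9.66%. The median log2 fold change of the 11, dKO over WT, was 3.63 without and 2.89 with cytokines, against 0.02 and 0.01 over all genes. In each comparison 1 of the 11 was below 0. For 7 cholangiocyte and mesothelium markers the sums were 36.0 to 88.9 CPM in untreated dKO and 150.4 to 262 CPM in dKO with cytokines, against 2.47 to 3.06 CPM in the WT libraries. The 10 leukocyte markers summed to between 4.32 and 10.1 CPM in every library, with Cd3e at 0 counts in all groups, and the 8 hepatocyte markers to at most 0.291 CPM. The 7 mitochondrial transcripts summed to between 5969 and 7711 CPM in every library.

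The promoters of the members carry short motifs that differ between the classes, and 4 of them are shown because these genes recur in the results. RefSeq promoter windows of the GRCm38.p6 build, 250 bases before to 50 bases after the start site, were found for 33 of the 39 members, as 34 windows, since Mcm7 has a pair of them. Motifs were searched on both strands as exact letters. The CHR was searched as TTTGAA and as the variant TTCGAA, and the box bound by NF-Y as CCAAT. Motifs of E2F were searched as TTCCCGC, then as TTCGCGC, then as TTGCCGC and then as TTGGCGC, and those of ETS factors as ACCGGAAG and then as ACAGGAAG. E2F letters can share bases with a CCAAT box, and 4 of 32 E2F matches in member windows did. Mcm5 (window chr8:75109259-75109558, plus strand) and Mcm3 (chr1:20820263-20820562, minus strand) encode subunits of the Mcm helicase, and capitals mark E2F letters in them. Cdc20 (chr4:118437294-118437593, minus strand) encodes the activator of the anaphase promoting complex and Kif23 (chr9:61946750-61947049, minus strand) a kinesin of the central spindle, and capitals mark CHR and CCAAT letters in them. All 4 are written 5′ to 3′ on the strand of the gene.
Mcm5: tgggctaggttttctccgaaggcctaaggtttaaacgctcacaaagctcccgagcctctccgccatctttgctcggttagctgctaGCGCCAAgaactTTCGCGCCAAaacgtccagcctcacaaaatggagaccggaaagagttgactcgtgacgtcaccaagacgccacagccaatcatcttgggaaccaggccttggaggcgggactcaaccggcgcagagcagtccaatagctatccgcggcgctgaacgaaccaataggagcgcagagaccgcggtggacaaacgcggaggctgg
Mcm3: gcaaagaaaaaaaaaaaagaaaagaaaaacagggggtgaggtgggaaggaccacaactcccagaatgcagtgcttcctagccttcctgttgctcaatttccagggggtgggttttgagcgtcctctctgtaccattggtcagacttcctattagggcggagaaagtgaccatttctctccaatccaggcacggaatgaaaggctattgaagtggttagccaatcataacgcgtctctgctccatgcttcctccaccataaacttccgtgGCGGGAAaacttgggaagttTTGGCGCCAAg
Cdc20: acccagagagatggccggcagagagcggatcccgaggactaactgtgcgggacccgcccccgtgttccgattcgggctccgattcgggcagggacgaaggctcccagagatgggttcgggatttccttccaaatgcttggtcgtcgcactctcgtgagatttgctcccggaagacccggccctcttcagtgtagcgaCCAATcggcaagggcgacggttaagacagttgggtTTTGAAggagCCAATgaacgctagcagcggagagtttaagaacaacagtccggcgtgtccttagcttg
Kif23: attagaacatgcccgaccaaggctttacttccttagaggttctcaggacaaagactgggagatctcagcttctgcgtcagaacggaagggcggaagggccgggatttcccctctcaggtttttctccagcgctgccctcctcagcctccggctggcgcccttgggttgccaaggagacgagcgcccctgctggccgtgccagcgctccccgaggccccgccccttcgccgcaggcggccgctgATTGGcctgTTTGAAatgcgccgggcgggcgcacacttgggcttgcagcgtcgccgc
In the Mcm5 window the 3 E2F matches began at positions -164, -152 and -149 from the start site. In the Mcm3 window 3 E2F matches lay past the start site. In Cdc20 the CHR began at position -18, between a pair of CCAAT boxes, and in Kif23 it began at position 3, past the start site and after 1 CCAAT box.

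The same division held over the classes. A CHR match was in 12 of 15 mitosis windows (80.0%), in 3 of 19 S phase windows (15.8%) and in 19.2% of all 32851 promoter windows of the same length. An E2F match was in 12 of 19 S phase windows (63.2%), in 3 of 15 mitosis windows (20%) and in 9.57% of all windows. The CCAAT box was in 14 mitosis windows (93.3%) and 13 S phase windows (68.4%), against 37.4% of all windows. Of the mitosis windows, 80.0% held CHR and CCAAT letters together, against 15.8% of S phase windows and 7.52% of all. ETS letters were in 2 member windows (5.88%), those of Cenpf and Mcm3, and in 5.77% of all windows. These are matches of letters only, and their use in these cells was not measured.

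**Figure D1:**
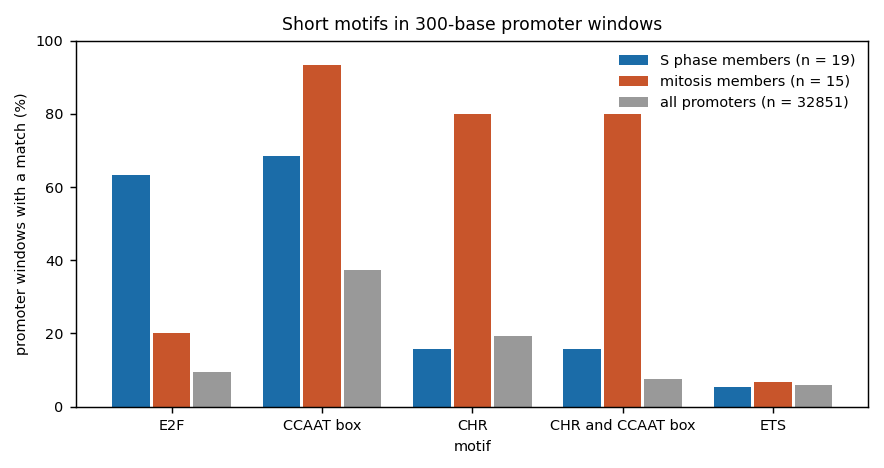
Share of 300-base promoter windows (y axis, percent) that hold each motif (x axis) among S phase members, mitosis members and all promoters in the RefSeq table. The CHR bar reaches 80.0% in mitosis members and 15.8% in S phase members, and the E2F bar 20% and 63.2%.

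Expression per transcript length spanned a wide range. In untreated WT cells the mean level per kilobase of exon (RPKM) was highest for the replication clamp Pcna (21.8), the helicase subunits Mcm6 (10.2), Mcm3 (9.85) and Mcm4 (8.89) and the kinase Cdk2 (8.63). Among mitosis members Cdc20 (8.02 RPKM) and Cdk1 (5.15 RPKM) were the most abundant, and the kinetochore proteins Cenpf (0.289 RPKM) and Cenpe (0.597 RPKM) the least. In CPM, the S phase members summed to 302 and 322 in untreated dKO libraries, against 446 and 438 in untreated WT libraries, and the mitosis members to 75.4 and 91.8, against 165 and 184. With cytokines the S phase sums were 334 and 352 CPM in dKO, against 504 and 520 CPM in WT, and the mitosis sums 70.2 and 84.9 CPM in dKO, against 150.0 and 167 CPM in WT. Both sums were lower in every dKO library than in every WT library of the same treatment. Counts of 4 members are uncertain, because at least 10% of their exon bases are covered by a gene on the opposite strand and the library kit may not have marked strand: Gins2 (67.3%, by Gse1), Kif20a (29.3%, by Cdc23), Ccne2 (17.4%, by Ints8) and Ccna2 (12.5%, by Exosc9).

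**Figure D2:**
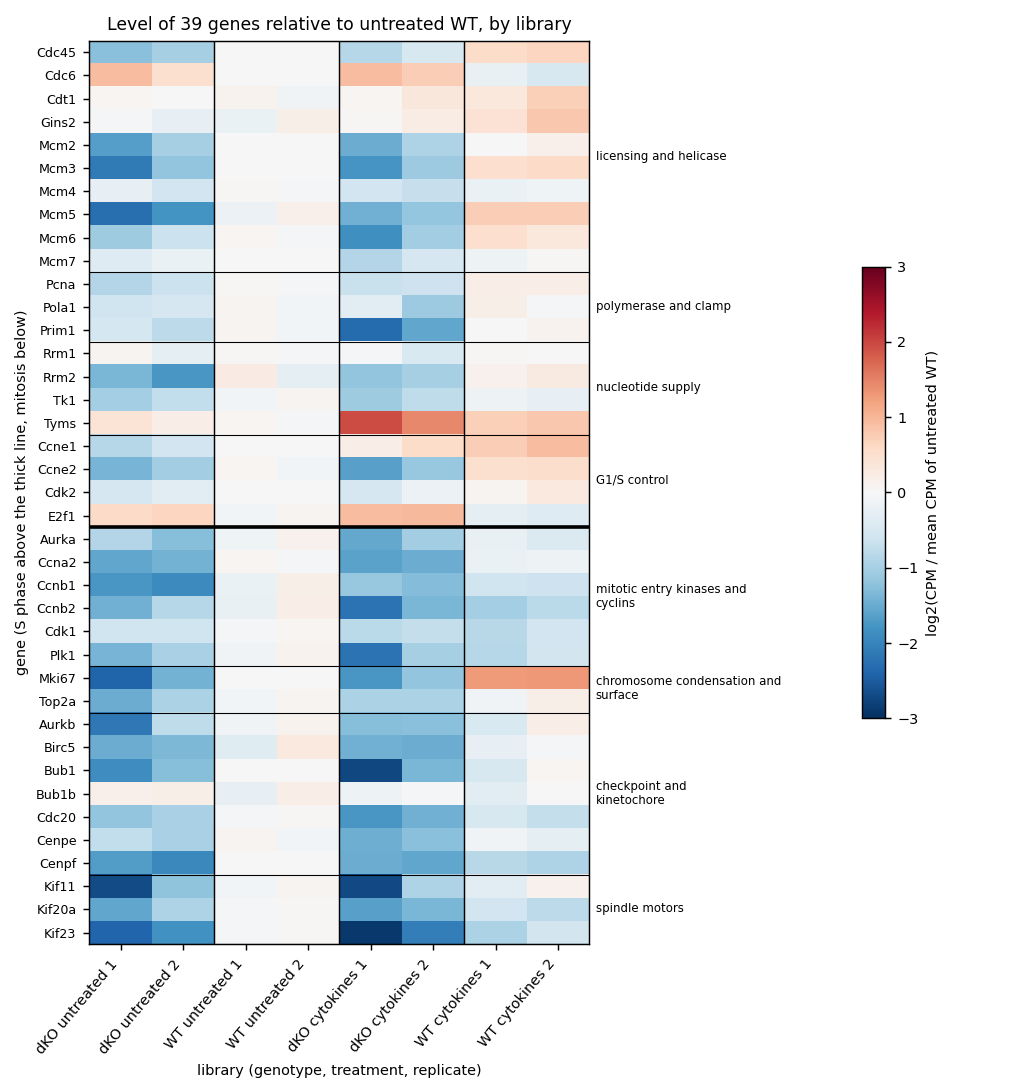
Level of each of the 39 members in each library, as log2 of CPM over the mean CPM of untreated WT (colour scale), with genes in rows by role and libraries in columns. Most rows are blue in the 4 dKO columns, Cdc6, E2f1 and Tyms are the red S phase rows there, and in WT with cytokines Mki67 is the reddest row.

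Genes of both classes were lower in dKO than in WT cells without cytokines, with a larger median fall in the mitosis class. Of the 39 members, 20 fell in dKO, against 9.66% of all genes tested, and 1 rose, against 13.4%. Among S phase members 8 of 21 fell and E2f1 rose, and among mitosis members 12 of 18 fell and none rose. The median log2 fold change was -0.66 over the S phase members and -1.24 over the mitosis members, against 0.02 over all genes tested. Adjusted p-values are from the quasi-likelihood test of edgeR, adjusted over all genes by Benjamini and Hochberg, and 0.05 was the threshold.

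The helicase and its loading factors did not move as a block. Mcm5 (ENSMUSG00000005410, GRCm38 chromosome 8, 75109569 to 75128439, plus strand) had 2.95 and 4.07 CPM in untreated dKO libraries, against 12.6 and 15.8 CPM in untreated WT libraries. Both dKO libraries lay far below both WT libraries. The fitted difference of Mcm5 was 4.04-fold (log2 fold change -2.01 with SE 0.22, adjusted p = 0.00351). Its call held with any 1 of the 8 libraries left out (adjusted p 0.00514 to 0.0281). Mcm3 had 8.49 and 16.2 CPM in dKO, against 36.9 and 37.1 CPM in WT (log2 fold change -1.58 with SE 0.34, adjusted p = 0.0232), and Mcm2 had 12 and 19 CPM, against 38 and 37.8 CPM (log2 fold change -1.29 with SE 0.26, adjusted p = 0.0182). For both, the level in dKO replicate 1 was the lower of the dKO pair and the groups did not overlap. Cdc45, which travels with the Mcm ring in the active helicase, had 1.74 and 2.08 CPM in dKO, against 4.14 and 4.11 CPM in WT (log2 fold change -1.11 with SE 0.24, adjusted p = 0.0221). Mcm6, Mcm4 and Mcm7 had log2 fold changes of -0.84, -0.40 and -0.29 with adjusted p of 0.0662, 0.0669 and 0.198, and did not pass. The estimates for subunits of 1 ring thus ran from -2.01 to -0.29. Neither loading factor was called in edgeR. Cdc6 had 10.9 and 8.07 CPM in dKO, against 5.83 and 5.66 CPM in WT, above WT in both libraries, and just missed the threshold (log2 fold change 0.72 with SE 0.21, adjusted p = 0.051), which it passed in DESeq2 (adjusted p = 0.0377). Cdt1 had 6.3 and 6.03 CPM in dKO, against 6.54 and 5.66 CPM in WT, with groups that overlapped (log2 fold change 0.02 with SE 0.21, adjusted p = 0.963). Gins2, another part of the active helicase, also overlapped (log2 fold change -0.16 with SE 0.24, adjusted p = 0.661). The calls of Mcm3, Mcm2 and Cdc45 were lost without untreated dKO replicate 1 or without either untreated WT library (adjusted p up to 0.1, 0.0917 and 0.109).

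Among other S phase members, Pcna, the clamp that holds polymerases on DNA, had 28.7 and 33.6 CPM in dKO, against 53.4 and 51.5 CPM in WT (log2 fold change -0.75 with SE 0.10, adjusted p = 0.00618). The priming enzymes Prim1 (-0.66) and Pola1 (-0.55) had negative log2 fold changes that did not pass (adjusted p = 0.155 and 0.173). Of the enzymes that supply nucleotides, Rrm2, the cell cycle regulated subunit of ribonucleotide reductase, had 3.44 and 2.66 CPM in dKO, against 10.5 and 7.28 CPM in WT (log2 fold change -1.54 with SE 0.25, adjusted p = 0.0104). Thymidine kinase Tk1 fell as well (log2 fold change -0.87 with SE 0.20, adjusted p = 0.0278). Their partners differed: Rrm1, the large reductase subunit, had 38.7 and 30.3 CPM in dKO, against 37.3 and 36 CPM in WT, which overlap (log2 fold change -0.09 with SE 0.17, adjusted p = 0.734). Tyms, which makes thymidylate, had 17.4 and 15.1 CPM in dKO, against 13.6 and 12.7 CPM in WT, higher in both dKO libraries without passing the test (log2 fold change 0.30 with SE 0.18, adjusted p = 0.26). Without untreated WT replicate 1 the calls of Pcna and Rrm2 were lost (adjusted p = 0.0539 and 0.0664), and that of Tk1 was lost without any of the 4 WT libraries or untreated dKO replicate 1 (up to 0.138).

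The regulators of S phase entry split as well. E2f1 (ENSMUSG00000027490, GRCm38 chromosome 2, 154559407 to 154569892, minus strand) had 37.4 and 39.1 CPM in untreated dKO libraries, against 23.9 and 26.4 CPM in untreated WT libraries. Both dKO libraries were above both WT libraries, 1.52-fold in the fit (log2 fold change 0.60 with SE 0.10, adjusted p = 0.0106). The call was lost without either untreated WT library (adjusted p up to 0.0831). Ccne2, a cyclin E, had 1.56 and 2 CPM in dKO, against 4.28 and 3.88 CPM in WT, and fell (log2 fold change -1.19 with SE 0.27, adjusted p = 0.0247). That call was lost without any of the 4 WT libraries or untreated dKO replicate 1 (adjusted p up to 0.122). The other cyclin E, Ccne1, and their kinase Cdk2 had log2 fold changes of -0.71 and -0.42 that did not pass (adjusted p = 0.0656 and 0.0715).

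In the mitosis class, 17 of 18 members were lower in both untreated dKO libraries than in both WT libraries, as were 15 of 21 S phase members, against 34.1% of all genes. Only S phase genes, 3 of them, were higher in both dKO libraries, against 35.9% of all genes. Kif23 (ENSMUSG00000032254, GRCm38 chromosome 9, 61915905 to 61946774, minus strand) had 1.74 and 2.58 CPM in dKO, against 8.9 and 9.27 CPM in WT, and had the largest fall of the class (4.19-fold; log2 fold change -2.07 with SE 0.34, adjusted p = 0.0111). Kif20a, a kinesin needed for cytokinesis, had 2.86 and 4.45 CPM, against 8.12 and 8.66 CPM (log2 fold change -1.20 with SE 0.26, adjusted p = 0.0232). Kif11, which pushes spindle poles apart, had 1.52 and 4.28 CPM, against 9.23 and 10.4 CPM. Its dKO replicate 2 stood far above dKO replicate 1, both under WT, and it did not pass (log2 fold change -1.75 with SE 0.67, adjusted p = 0.105). Mki67 (ENSMUSG00000031004, GRCm38 chromosome 7, 135689784 to 135716361, minus strand), whose product coats mitotic chromosomes and is widely used as a marker of cycling cells, had 2.64 and 5.24 CPM, against 14.1 and 14 CPM (log2 fold change -1.83 with SE 0.33, adjusted p = 0.0138). The DNA decatenating enzyme Top2a fell by less (log2 fold change -1.19 with SE 0.20, adjusted p = 0.0115). Without either untreated WT library the calls of Kif23, Kif20a, Mki67 and Top2a were lost, and without untreated dKO replicate 1 those of both kinesins (adjusted p up to 0.0669, 0.114, 0.0749 and 0.0734).

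Entry kinases and cyclins were lower too. Ccnb1 had 1.43 and 1.29 CPM in untreated dKO libraries, against 4.21 and 5.43 CPM in untreated WT libraries (log2 fold change -1.82 with SE 0.25, adjusted p = 0.00661), and Ccna2 2.55 and 2.83 CPM, against 7.83 and 7.21 CPM (log2 fold change -1.48 with SE 0.19, adjusted p = 0.00558). Neither pair of groups overlapped. Their kinase Cdk1 (ENSMUSG00000019942, GRCm38 chromosome 10, 69335146 to 69352938, minus strand) changed less, with 16.9 and 16.9 CPM in dKO, against 24.2 and 26.6 CPM in WT (log2 fold change -0.59 with SE 0.13, adjusted p = 0.0228). Aurka, a spindle pole kinase, passed (log2 fold change -1.06 with SE 0.27, adjusted p = 0.0335), and Ccnb2 and Plk1 had log2 fold changes of -1.12 and -1.16 without passing (adjusted p = 0.0654 and 0.083). At the kinetochore and checkpoint, Cenpf had 1.39 and 1.16 CPM, against 4.39 and 4.52 CPM (log2 fold change -1.80 with SE 0.24, adjusted p = 0.0062), and Birc5 (survivin), Cdc20 and Cenpe also fell, with log2 fold changes of -1.42, -1.07 and -0.85. Bub1 (-1.53) and the Aurora kinase Aurkb (-1.29) did not pass (adjusted p = 0.0571 and 0.0844). The checkpoint kinase Bub1b was the exception of the class, with 13.7 and 13.9 CPM in dKO, against 10.4 and 14.2 CPM in WT, and overlapping groups (log2 fold change 0.16 with SE 0.20, adjusted p = 0.567). Leaving out untreated WT replicate 1 ended the calls of Ccna2 and Cenpf (adjusted p = 0.0507 and 0.0509), leaving out untreated WT replicate 2 that of Ccnb1 (0.0518), and leaving out any of the 4 untreated libraries that of Cdk1 (up to 0.129). Birc5 was lost without untreated dKO replicate 1 or WT replicate 2 (up to 0.101), Cdc20 without untreated dKO replicate 1 or either untreated WT library (up to 0.0753), and Aurka and Cenpe without any untreated library or any WT library with cytokines (up to 0.161 and 0.178).

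**Figure D3:**
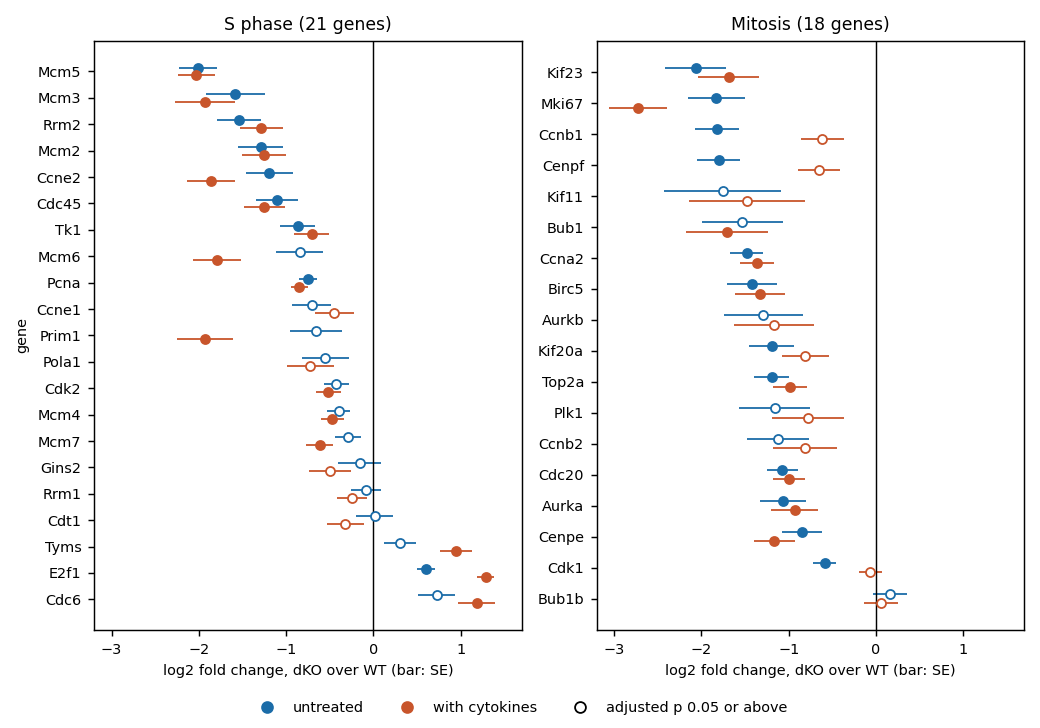
Log2 fold change of dKO over WT (x axis, bars are SE) for each member (y axis), without and with cytokines, for S phase and mitosis genes. Filled points passed an adjusted p of 0.05. Most points lie left of 0, and E2f1, Cdc6 and Tyms lie right of it in both comparisons, as does the mitosis member Bub1b by a small distance.

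These counts depended on single libraries. Shares of all genes are not given for the fits with 1 library left out, so a loss particular to the members cannot be read from them. Without untreated WT replicate 1 the fit called 3 members, 1 of S phase and 2 of mitosis. Without untreated WT replicate 2 it called 5, and without untreated dKO replicate 1, 9. Fitted on the untreated groups alone, the test called 5 S phase members lower in place of 8 and 9 mitosis members in place of 12. The share of all genes called lower was 5.23% in that fit, in place of 9.66%. DESeq2 called more, 27 members lower, against 13.2% of all genes, and 2 higher, against 15.4%. Its 17 lower mitosis members took in Kif11, Bub1, Aurkb, Plk1 and Ccnb2, which did not pass in edgeR, and its 10 lower S phase members Mcm6 and Cdk2. Endothelial markers were lower and stellate cell and fibroblast markers higher in the same dKO libraries, as given above, and their part in these differences was not tested.

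Among further genes of the same pathways, falls also outnumbered rises. Of 38 other replication genes, 13 fell in untreated dKO cells, against 9.66% of all genes, and 1 rose (Ung), against 13.4%, and their median log2 fold change was -0.50. The largest changes were in Dscc1, a clamp loader subunit with few reads (0.0447 and 0.166 CPM in dKO, against 0.591 and 0.944 CPM in WT; log2 fold change -2.79 with SE 0.78, adjusted p = 0.0459), Pole, the catalytic subunit of the leading strand polymerase (log2 fold change -2.57 with SE 0.32, adjusted p = 0.00513), Pole2, its second subunit (-1.64), and the fork protein Timeless (-1.38). Pole had 1.88 and 2.49 CPM in dKO, against 15.1 and 11 CPM in WT. Of 50 other mitosis genes, 19 fell and none rose, against the same shares, with a median of -0.92, led by the checkpoint kinase Ttk at 0.447 and 0.416 CPM in dKO, against 3.4 and 2.9 CPM in WT (log2 fold change -2.85 with SE 0.32, adjusted p = 0.00395).

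With cytokines in both genotypes, the members again stood lower in dKO than in WT, now with more S phase than mitosis calls. Of the 39, 22 fell, against 15.4% of all genes tested, and 3 rose, against 18.6%. S phase members made up 13 of the falls and all 3 rises, E2f1, Cdc6 and Tyms, and mitosis members 9 of the falls. The median log2 fold change was -0.71 over S phase and -0.99 over mitosis members, against 0.01 over all genes. No dKO library overlapped a WT library in 17 S phase and 16 mitosis members that were lower, against 36.2% of all genes, and in 3 S phase members that were higher, against 37.2%.

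Mki67 had the largest difference of all members, with 4.18 and 6.14 CPM in dKO libraries with cytokines, against 34.1 and 34.4 CPM in WT libraries with cytokines. Every dKO value was below every WT value, 6.63-fold in the fit (log2 fold change -2.73 with SE 0.33, adjusted p = 0.00349), and the call held with any 1 library left out (adjusted p 0.00201 to 0.0253). Mcm5 had 5.27 and 6.32 CPM, against 23.8 and 23.6 CPM (log2 fold change -2.03 with SE 0.21, adjusted p = 0.00241), and Mcm3 10.8 and 17.4 CPM, against 52.6 and 54.9 CPM (log2 fold change -1.93 with SE 0.34, adjusted p = 0.00955). Mcm6 had 13.3 and 23.1 CPM, against 67.3 and 59.1 CPM (log2 fold change -1.80 with SE 0.28, adjusted p = 0.00636), and Prim1 0.681 and 1.15 CPM, against 3.4 and 3.61 CPM (log2 fold change -1.93 with SE 0.32, adjusted p = 0.00738). Neither Mcm6 nor Prim1 had passed without cytokines, and in both the groups were far apart here. Bub1 passed as well, with 0.636 and 1.63 CPM, against 3.04 and 4.4 CPM (log2 fold change -1.71 with SE 0.47, adjusted p = 0.0345), a call lost without 5 of the 8 libraries in turn (adjusted p 0.0158 to 0.147). These libraries were both untreated WT, both WT with cytokines and dKO replicate 1 with cytokines. The call of Mcm3 was lost without WT replicate 1 with cytokines (adjusted p = 0.0518), and those of Mcm5, Mcm6 and Prim1 held in all 8 such fits.

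The 3 genes that rose in dKO with cytokines were those that lay above WT in both dKO libraries without them. E2f1 had 48.1 and 49.2 CPM in dKO, against 20.6 and 19.3 CPM in WT, with no overlap (2.44-fold; log2 fold change 1.28 with SE 0.10, adjusted p = 0.00127), and Cdc6 had 10.9 and 9.63 CPM, against 4.94 and 4.12 CPM (log2 fold change 1.18 with SE 0.21, adjusted p = 0.00945). Tyms had 50.7 and 35.5 CPM, against 21.8 and 23 CPM (log2 fold change 0.94 with SE 0.18, adjusted p = 0.0111). The E2f1 call held with any 1 library left out (adjusted p 0.00226 to 0.0124), that of Cdc6 was lost without WT replicate 2 with cytokines (adjusted p = 0.06) and that of Tyms without either WT library with cytokines (adjusted p up to 0.0727). In the mitosis class Cdk1 no longer separated the genotypes. It had 14.4 and 15.5 CPM in dKO, against 14.2 and 17 CPM in WT, and the groups overlapped (log2 fold change -0.06 with SE 0.13, adjusted p = 0.725). Ccnb1 and Cenpf were lower in both dKO libraries but did not pass (-0.61 and -0.65, adjusted p = 0.097 and 0.0777).

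**Figure D4:**
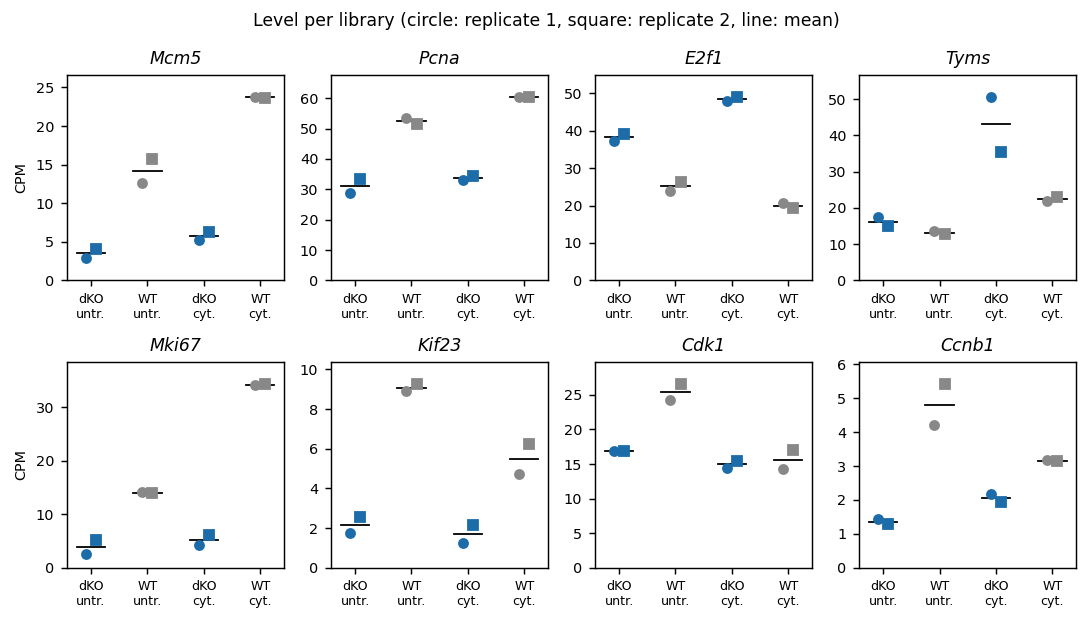
CPM in each library (y axis, from 0) for 8 members, by genotype and treatment (x axis), with a line at the mean of each pair. Mcm5, Pcna, Mki67 and Kif23 are lower in every dKO library than in every WT library of the same treatment, E2f1 and Tyms are higher, and Cdk1 overlaps once cytokines are given.

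Of the members that fell, 16 fell in both comparisons, which is 80.0% of the 20 untreated falls and 72.7% of the 22 with cytokines. All 8 S phase falls without cytokines were also falls with them. Ccnb1, Cdk1, Cenpf and Kif20a passed only without cytokines, and Bub1, Cdk2, Mcm4, Mcm6, Mcm7 and Prim1 only with them. A call in 1 comparison does not show a difference between treatments, and none of these 10 had an interaction that passed without the block; with it Mcm6 did. The 2 comparisons use different libraries but are not independent. All groups share an estimate of the spread, and equal numbers within a genotype deviated together. The share of all genes that fell in both is not given here. Nor are shares of all genes for the fits with 1 library left out. In some of those fits the calls with cytokines of Cdk2, Mcm4 and Mcm7 were lost, as were most calls of both comparisons. With 1 library left out the number of calls ran from 11 to 27, with 11 without WT replicate 1 or without WT replicate 2 given cytokines. Without dKO replicate 1 given cytokines 2 mitosis members fell in place of 9. Of the other replication genes 16 of 38 fell, against 15.4% of all genes, and none rose, against 18.6%, among them Pole (-2.59), Timeless (-2.34) and the fork checkpoint protein Clspn (-2.04). Of the other mitosis genes 18 of 50 fell and none rose, against the same shares, led by the condensin subunit Ncapg (-1.75), Ttk (-1.60), the kinetochore protein Nuf2 (-1.47) and the spindle pole protein Aspm (-1.41).

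The cytokines themselves changed few members in dKO cells. Relative to untreated dKO cells, 2 of 39 rose, against 3.5% of all genes, and none fell, against 2.06%. At an unadjusted p under 0.05 there were 7 of 39 members, against 23.4% of all genes. Both treated libraries lay above both untreated ones in 8 S phase and 2 mitosis members, against 24.7% of all genes, and below them in 3 and 4, against 24.8%. Tyms (ENSMUSG00000025747, GRCm38 chromosome 5, 30058202 to 30073617, minus strand) had 50.7 and 35.5 CPM in dKO libraries with cytokines, against 17.4 and 15.1 CPM in untreated dKO libraries. The groups did not overlap, and the treated level was 2.66-fold higher (log2 fold change 1.41 with SE 0.18, adjusted p = 0.0156), a call lost without untreated dKO replicate 1 (adjusted p = 0.0621). Ccne1 had 4.68 and 6.01 CPM, against 2.28 and 2.74 CPM, also without overlap (log2 fold change 1.09 with SE 0.23, adjusted p = 0.0469). Its call was lost with any 1 library left out (adjusted p 0.0862 to 0.197). Prim1 went the other way, with 0.681 and 1.15 CPM, against 2.32 and 1.95 CPM, without passing (log2 fold change -1.22 with SE 0.32, adjusted p = 0.0823). Among mitosis members the log2 fold changes ran from -0.60 (Ccnb2) to 0.60 (Ccnb1), and none passed. Fitted on the dKO groups alone, the test called 0 members and 1 of all genes.

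Libraries of the same number within a genotype deviated together, so the fit with the replicate number as a block was also run. With that block 7 members changed with cytokines in dKO, all of S phase. Ccne1, E2f1, Mcm5 and Tyms rose, against 12.7% of all genes, and Mcm6, Mcm7 and Prim1 fell, against 11.3%, and neither count exceeds that share of 39. E2f1 had 48.1 and 49.2 CPM, against 37.4 and 39.1 CPM untreated (blocked log2 fold change 0.35, adjusted p = 0.0353), and Mcm6 13.3 and 23.1 CPM, against 22.7 and 30.3 CPM (blocked log2 fold change -0.57, adjusted p = 0.00871). The groups overlapped for Mcm6, but in each replicate the treated library was the lower.

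In WT cells few members were called with cytokines, and the classes had medians of opposite sign, a difference between them that was not tested. Relative to untreated WT cells, Tyms, Ccne1 and Mki67 rose, 3 of 39 against 9.72% of all genes, and Cdk1 and Cenpf fell, 2 of 39 against 7.69%. Neither count exceeds the share of all genes. Of the S phase members 16 of 21 had a positive log2 fold change and of the mitosis members 16 of 18 a negative one, with medians of 0.20 and -0.26, against -0.01 over all genes. Both WT libraries with cytokines were above both untreated ones in 11 S phase members and 1 mitosis member, against 34.3% of all genes, and below them in 4 S phase and 11 mitosis members, against 33.9%.

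Tyms had 21.8 and 23 CPM in WT libraries with cytokines, against 13.6 and 12.7 CPM in untreated WT libraries (log2 fold change 0.77 with SE 0.18, adjusted p = 0.0339), and Ccne1 6.79 and 7.77 CPM, against 4.06 and 4.15 CPM (log2 fold change 0.83 with SE 0.22, adjusted p = 0.0479). Mki67 had 34.1 and 34.4 CPM, against 14.1 and 14 CPM, 2.44-fold higher (log2 fold change 1.29 with SE 0.31, adjusted p = 0.037). It moved against its class. Cdk1 had 14.2 and 17 CPM, against 24.2 and 26.6 CPM, 1.63-fold lower (log2 fold change -0.70 with SE 0.13, adjusted p = 0.0162), and Cenpf 2.51 and 2.36 CPM, against 4.39 and 4.52 CPM (log2 fold change -0.87 with SE 0.23, adjusted p = 0.0486). In none of these 5 genes did the groups overlap. No call held in all 8 fits with 1 library left out: that of Cdk1 was lost without either untreated WT library or WT replicate 1 with cytokines (adjusted p 0.0211 to 0.109), those of Tyms and Mki67 without any of the 4 WT libraries (up to 0.17 and 0.175), and those of Ccne1 and Cenpf without any of the 8 libraries (up to 0.205 and 0.201). Fitted on the WT groups alone, the test called 6 members higher, against 16.2% of all genes, and 6 lower, against 14.9%.

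With the replicate block 8 of 39 members rose in WT, against 19.3% of all genes, and 7 fell, against 18.5%, shares close to those of all genes. Of these, 7 S phase members rose (Ccne1, Cdc45, Gins2, Mcm3, Mcm5, Mcm6 and Tyms) and 1 fell (E2f1), and 1 mitosis member rose (Mki67) and 6 fell (Ccnb2, Cdc20, Cdk1, Cenpf, Kif20a and Kif23). Mcm3 had 52.6 and 54.9 CPM in WT with cytokines, against 36.9 and 37.1 CPM in untreated WT (blocked log2 fold change 0.54, adjusted p = 0.00332), and Kif23 4.72 and 6.24 CPM, against 8.9 and 9.27 CPM (blocked log2 fold change -0.74, adjusted p = 0.0171). In both genes the treated libraries lay on 1 side of the untreated ones. E2f1 had 20.6 and 19.3 CPM, against 23.9 and 26.4 CPM (blocked log2 fold change -0.33, adjusted p = 0.0325), opposite in sign to its change in dKO. Of the other genes of the pathways, Uhrf1, a maintenance methylation factor, rose with cytokines in dKO (log2 fold change 1.26 with SE 0.23, adjusted p = 0.0318) and in WT (log2 fold change 1.20 with SE 0.22, adjusted p = 0.0164) without the block. Origin factor Orc6 (-0.63), the phosphatase Cdc25b (-1.11) and the centromere histone Cenpa (-1.08) fell in WT, and the polymerase subunit Pold1 rose (0.53). In all, 1 of the 38 other replication genes rose in dKO, against 3.5% of all genes, and 2 rose, against 9.72%, and 1 fell, against 7.69%, in WT, while of the 50 other mitosis genes none was called in dKO and 2 fell in WT. The endothelial marker sum also differed with treatment in WT, as given above, and its part in these changes was not tested.

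**Figure D5:**
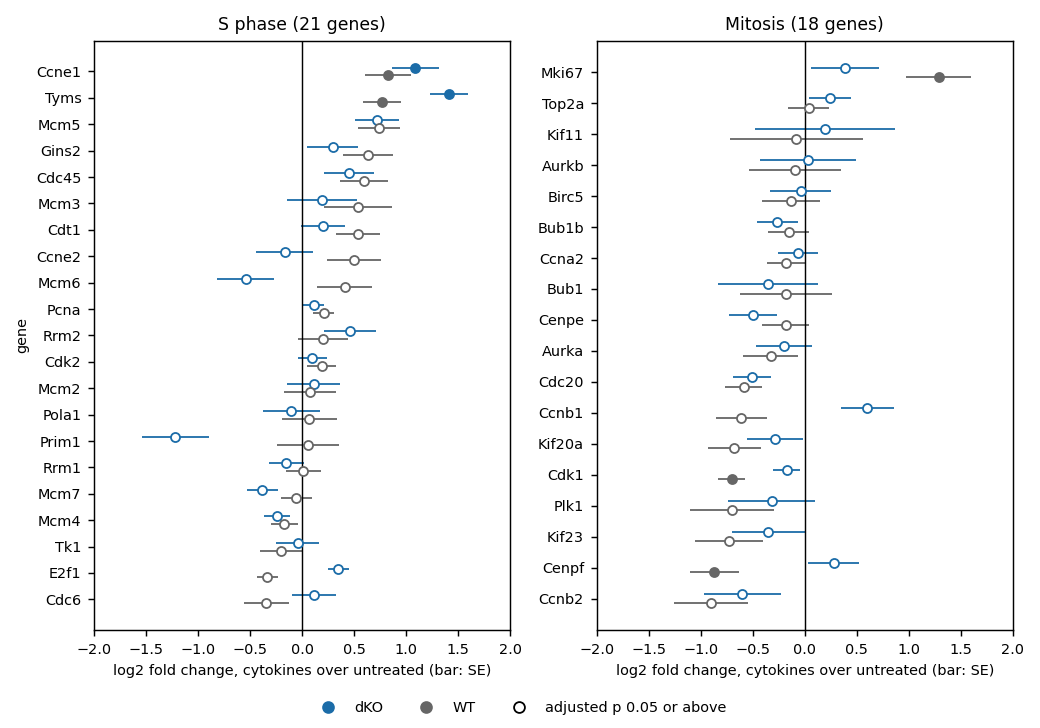
Log2 fold change with cytokines over untreated cells (x axis, bars are SE) for each member (y axis), in dKO and in WT, for S phase and mitosis genes in the fit without the block. Filled points passed an adjusted p of 0.05. In WT most S phase points lie right of 0 and most mitosis points left of it, with Mki67 far to the right.

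Whether the cytokine change differed between genotypes was tested as the interaction, the change in dKO minus the change in WT. No member passed in edgeR, nor did any of the 15698 genes (0.0% called). At an unadjusted p under 0.05 there were 7 of 39 members, 4 of S phase and 3 of mitosis, against 10.7% of all genes. DESeq2 called E2f1 with a positive interaction (adjusted p = 0.0279), against 1.01% of all genes. With the replicate block E2f1 was called with a positive interaction (log2 fold change 0.68, adjusted p = 0.0318), against 3.24% of all genes, and Mcm6 with a negative one (log2 fold change -0.98, adjusted p = 0.0132), against 2.8%. Neither was called with a block shared by both genotypes (adjusted p = 0.162 and 0.358). Relative to untreated cells, E2f1 was higher with cytokines in dKO and lower in WT in the fit with the block within genotype, and Mcm6 lower in dKO and higher in WT. The largest interactions without a call were those of Prim1 (-1.27, adjusted p = 0.382), Ccnb1 (1.21, adjusted p = 0.306) and Cenpf (1.15, adjusted p = 0.315). Mki67 had -0.90 (adjusted p = 0.553, and 0.0504 with the block).

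Set against the mean of the untreated WT libraries, the classes can be followed library by library. In untreated dKO replicates 1 and 2 the median log2 level was -0.61 and -0.58 over S phase members and -1.53 and -1.09 over mitosis members. The mitosis median minus the S phase median was -0.92 and -0.50 there, against -0.10 and 0.09 in untreated WT replicates 1 and 2. In dKO with cytokines this difference was -0.91 and -0.67, and in WT with cytokines -0.66 and -0.62. The S phase medians were -0.67 and -0.62 in dKO with cytokines, against 0.19 and 0.26 in WT with cytokines, and the mitosis medians -1.57 and -1.28, against -0.47 and -0.36. Mitosis members thus stood lower relative to S phase members in dKO libraries and in WT libraries with cytokines than in untreated WT libraries, a difference between classes that was not tested. The untreated WT libraries are part of their own reference, so their small differences follow from the scaling. With cytokines the dKO libraries (-0.91 and -0.67) lay close to the WT libraries (-0.66 and -0.62) in this measure. Counting Ccna2, which acts in both phases, among the S phase members left untreated medians of -0.68 over S phase and -1.20 over mitosis. dKO replicate 1 was lower than dKO replicate 2 in 26 of 39 members without and in 30 with cytokines. Without both dKO second libraries, each dKO group held 1 library. The median log2 fold change of dKO over WT was then -0.62 over S phase and -1.54 over mitosis members without cytokines. With cytokines it was -0.81 and -1.23, and over all genes it was 0.004 in both comparisons.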

How the data were processed

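The deposited table gives unnormalized counts of reads for each Ensembl gene in 8 libraries. Per the submitters' processing notes, STAR 2.7.6a, FastQC 0.11.5 and GRCm38 were used, without stated roles. The sources used here do not name the counting program, its strand setting or any filter. Per the labels' protocols, libraries of polyadenylated RNA were made with an unstranded kit or a stranded one.

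Groups and replicate numbers came from the labels. The counts were fitted with edgeR 4.0.16 (R 4.3.3) after TMM scaling and a low-count filter by group, in a robust quasi-likelihood fit with 4 group coefficients over 8 libraries, which left 4 residual degrees of freedom (common biological coefficient of variation 24.3%). Tests were two-sided and Benjamini-Hochberg adjusted over 15698 genes in each of 5 contrasts, with a threshold of 0.05. The SE given is the size of the log2 fold change divided by the square root of the test's F statistic. The script was tested on simulated data with 100 genes changed at each size. It recovered 78% of changes with a log2 size of 2 and 21% of those with a log2 size of 1. It also made 10 false calls. Only untreated dKO over WT was simulated, with changed genes above 1 CPM on average and each gene's spread the same in every group. Far more genes were called in the data than were changed in the simulation, so these rates may not carry over. A gene that did not pass may thus still differ, and a called gene may be a false call. CPM used TMM-scaled library sizes, and RPKM the exon length in GENCODE M21. A group's 2 libraries bound the precision of every level.

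Same-numbered libraries deviated together within a genotype (correlation across genes 0.43 in WT and 0.69 in dKO) and less so across genotypes (0.02 to 0.13). On this evidence, which is from the data, equal numbers within a genotype were treated as pairs in the fit with the replicate block. The library names also share a stem and a number between treatments, but the labels do not state that these are pairs. Alternatives were RLE size factors, DESeq2 1.42.0, no low-count filter, only the groups compared, the replicate block, each library left out, both dKO second libraries left out, and Ccna2 moved to S phase.

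The members, their classes, 3 further pathway lists and 6 marker lists were chosen with earlier results of these data known. All members were accounted for. Values of some genes of the other lists are not reported here. Full values were planned for members with the largest and smallest change of each class, those called in the interaction and those opposite in sign to their class, and up to 4 called genes of each pathway list. Other members whose values are given were chosen after their values were seen.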

Additional observations from a re-analysis of the deposited data

How the results depend on the processing

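RLE size factors moved the median of all genes by less than 0.02 on the log2 scale. With the replicate block within genotype, 7 members were called for cytokines in dKO, 15 in WT and 2 in the interaction, against 2, 5 and 0 without it. That block gives no error between genotypes, so it was not run for dKO over WT. A block shared by both genotypes, chosen after seeing the data, called 29 members without and 30 with cytokines, 2 and 6 for cytokines in dKO and WT, and 0 in the interaction. For dKO over WT it called 13.3% of all genes lower and 16.3% higher without cytokines, and 18.9% and 21.1% with them. For cytokines it called 3.51% of all genes lower and 5.1% higher in dKO, and 9.8% and 11.5% in WT. Fitted on only the groups compared, the test called 5 S phase and 9 mitosis members lower in untreated dKO, against 5.23% of all genes. For cytokines the test called 0 members in dKO and 12 in WT. DESeq2 called 1 member with a positive interaction, against 1.01% of all genes. With 1 library left out, calls ran from 3 to 26 (untreated dKO over WT; lower S phase 1 to 10, lower mitosis 2 to 15), 11 to 27 (with cytokines; 5 to 13 and 2 to 11), 0 to 1 (cytokines in dKO), 0 to 4 (cytokines in WT) and 0 to 0 (interaction). A group left with 1 library was assumed to vary like the others. Shares of all genes are not given for the fits with 1 library left out. Of 195 member log2 fold changes, 56 changed sign under at least 1 alternative, none of them called in edgeR. Values follow for the 12 among them that the naming rule covers. Cdt1 in untreated dKO was -0.00084 with RLE, -0.00648 without the filter and -0.000463 with DESeq2. The interaction of Mcm5 was 0.0115 without the filter and 0.12 without both dKO second libraries. Rrm1 with cytokines in WT was -0.0132, -0.00389 and -0.00907 without the filter, on only the groups compared and without both dKO second libraries. With 1 library left out the log2 fold changes ran from -0.0863 to 0.12 (Cdt1, untreated), -0.0457 to 0.40 and -0.10 to 0.23 (Bub1b, untreated and with cytokines), -0.50 to 0.88, -0.0227 to 0.97, -0.20 to 0.11 and -0.000669 to 0.54 (Aurkb, Mki67, Tk1 and Top2a, cytokines in dKO), -0.0227 to 0.0356 and -0.11 to 0.16 (Rrm1 and Top2a, cytokines in WT) and -0.99 to 0.34, -0.054 to 0.21 and -0.21 to 0.24 (Bub1, Cdc20 and Mcm5, interaction). The causes were not tested. Depth limits members near 14 counts in a library.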

Other observations

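A list of 26 regulators of these genes held the E2F, retinoblastoma, MuvB and Myb families with their controllers. In untreated dKO cells 3 of the 26 fell, against 9.66% of all genes, and 1 rose, against 13.4%, with a median log2 fold change of -0.30. Foxm1, a transcription factor of mitotic genes, had 3.53 and 5.03 CPM in dKO, against 10.5 and 11.8 CPM in WT (log2 fold change -1.38 with SE 0.23, adjusted p = 0.0116), and E2f8, an E2F that represses transcription, had 0.358 and 0.374 CPM, against 1.59 and 1.75 CPM (log2 fold change -2.18 with SE 0.48, adjusted p = 0.0242). Rbl2, the retinoblastoma relative p130 of resting cells, was the gene that rose, with 56.9 and 49.6 CPM in dKO, against 33.8 and 33.4 CPM in WT (log2 fold change 0.66 with SE 0.11, adjusted p = 0.00993). In all 3 genes the groups did not overlap. E2f6 fell slightly (log2 fold change -0.39 with SE 0.09, adjusted p = 0.0287).

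With cytokines 8 of the 26 fell in dKO relative to WT, against 15.4% of all genes, and Rbl2 rose, at 41.7 and 42.9 CPM in dKO, against 17.9 and 19.8 CPM in WT (log2 fold change 1.17 with SE 0.11, adjusted p = 0.0019). The largest falls were in E2f7 (-2.49), E2f8 (-2.19), Foxm1 (-1.46) and Mybl2 (-1.29), which encodes B-Myb. In WT cells the cytokines themselves were followed by a rise of Rbl1, the p107 relative, at 21.9 and 14.7 CPM with cytokines, against 8.27 and 8.46 CPM untreated (log2 fold change 1.13 with SE 0.21, adjusted p = 0.0163), and by falls of Rbl2 (log2 fold change -0.83 with SE 0.11, adjusted p = 0.00611), Tfdp2, an E2F partner (-1.15), Lin52, a MuvB subunit (-0.75), and E2f6 (-0.44), in all 1 rise and 4 falls among 26, against 9.72% and 7.69% of all genes. In dKO cells none of the 26 was called with cytokines, and 8 had an unadjusted p under 0.05, against 23.4% of all genes. DESeq2 called Lin52 and Tfdp2 lower there, 2 of 26 against 4.93% of all genes.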
